A study of Homo sapiens with 6 samples.

Results

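Interferon-stimulated genes were compared between wild strain TPC-1 cells and *RRM2*-OE-TPC-1 cells, and the 49 genes were chosen by symbol. All 49 had a row in the table of 58735 genes, and 39 of them were expressed above the minimum for testing. Of the 39, 7 were called higher in *RRM2*-OE-TPC-1 (*ISG15*, *IFI44*, *TRIM22*, *IFIT3*, *OASL*, *IFIT1* and *OAS3*) and 3 were called lower (*IFITM2*, *IFITM3* and *GBP2*). To be called, a gene had to reach an adjusted p of at most 0.05 together with a log2 fold change of at least 1 in either direction, and below a gene is said to have risen or fallen where it passed the adjusted p. These calls are 17.9% and 7.69% of the 39 tested members, and among all 13621 tested genes 4.48% were called higher and 6.97% lower. The share called lower was thus close to that of all genes, and carries no result about the members. By class, the tested members that passed the adjusted p were all higher among the RIG-I-like sensors (1 of 2) and the double-stranded RNA-binding enzymes (3 of 6). The same held for the IFIT proteins (3 of 4) and the group of *ISG15*, *HERC5*, *HERC6* and *USP18* (4 of 4). Those that passed were all lower among the STAT and IRF factors (4 of 4), the IFITM proteins (2 of 2) and the PARP9, PARP14 and DTX3L group (2 of 3). Among all tested genes 34.9% passed it higher and 32.7% lower, and the direction of a class was not tested. The GBP GTPases and 3 mixed classes held members of both directions, among the GBP genes through *GBP2* alone. *GBP2* among those called lower, and *TRIM22* among those called higher, reached the FPKM minimum only in the group where they were high, so that the filter fixed their direction, and the counts and shares above include them.

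Interferons are secreted cytokines that bind receptors on the cell surface, where the kinases *JAK1* and *TYK2* phosphorylate STAT factors. A complex of STAT factors with IRF9, ISGF3, binds the interferon-stimulated response element (ISRE) in the promoters of many induced genes, whereas STAT dimers bind the gamma-activated site (GAS). The induced proteins include sensors of viral RNA, enzymes that stop translation or degrade RNA, membrane proteins that hinder viral entry, and the STAT and IRF factors themselves. Many of them are also expressed at a low level in tumor cells that have met no added interferon.

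TPC-1 cells come from a human papillary thyroid carcinoma. To obtain *RRM2*-OE-TPC-1, this line was infected with a lentivirus (vector LV18, CMV promoter) that carried full-length *RRM2*, the small subunit of ribonucleotide reductase, and was selected with puromycin. The control was wild strain TPC-1, for which no infection, empty vector or puromycin is stated, so the infection, the selection and *RRM2* itself cannot be told apart. mRNA was sequenced in biological triplicate, as 3 libraries of each group. The genotype labels of *RRM2*-OE-TPC-1 replicates 2 and 3 read RRM3 and RRM4, whereas their titles give RRM2. Neither group was stated to have been given interferon.

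*RRM2* was at 9.17, 9.05 and 8.52 FPKM (fragments per kilobase of gene, scaled to depth) in the 3 TPC-1 libraries and at 50.4, 47.5 and 47.2 FPKM in the 3 *RRM2*-OE-TPC-1 libraries, a log2 fold change of 2.43 (SE 0.0442, limma adjusted p = 1.11e-08). The libraries held 14317091 to 17084067 reads on genes, and the log2 values correlated at 0.99031 to 0.99179 within groups and 0.92658 to 0.93058 between groups, across genes. A difference was tested with limma on log2(FPKM + 0.1), and fold changes on that scale understate the change of low genes. The median log2 fold change of all 13621 tested genes was 0.01. An exact permutation test of 3 against 3 libraries cannot go below a two-sided p of 0.1. Of the 8 markers of thyroid follicular cells 3 were tested, and *PAX8* (69.3 and 58.5 FPKM on average in TPC-1 and in the overexpressing cells) and *FOXE1* (4.30 and 3.19 FPKM) fell, whereas *HHEX* (2.47 and 4.61 FPKM) rose. The other 5 were under 1 FPKM in all 6 libraries, with *NKX2-1* listed at 0. The 10 leukocyte markers were each under 1 FPKM in all 6 libraries, with 5 at 0 throughout (among them *CD3E*, *MS4A1* and *LYZ*), and summed to 0.414 to 0.867 FPKM in TPC-1 and 0.173 to 0.281 FPKM in *RRM2*-OE-TPC-1. Summed FPKM was 42.9 to 47.1 and 88.4 to 90.8 for 6 epithelial markers, 0.873 to 1.07 and 0.0667 to 0.17 for 5 endothelial markers, and 0.844 to 0.977 and 0.43 to 0.583 for 5 fibroblast markers, the TPC-1 range being given first. The epithelial sum was mostly *KRT18* (41.2 and 85.2 FPKM on average), and *KRT8* (2.56 and 3.48 FPKM) also rose, while *KRT7* (1.18 and 1.01 FPKM) missed the threshold. *EPCAM* (0.0158 and 0.083 FPKM), *KRT19* (0.00849 and 0.0972 FPKM) and *CDH1* (0.0786 and 0.0508 FPKM) were too low to be tested. The endothelial sum was mostly *PECAM1* (0.924 and 0.0588 FPKM). The sums did not overlap between the groups, and their part in the results was not tested. In a bulk sample, fewer cells that express a gene and less RNA per cell cannot be told apart.

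The promoters of 7 members are shown so that the same response element can be set beside opposite changes. Each stretch holds the 170 bases upstream of the RefSeq transcription start on GRCh38.p14, written 5′ to 3′ on the strand of the gene. Capitals mark the core of the ISRE, GAAANNGAAA, on either strand, so that a match on the opposite strand shows as its reverse complement. *ISG15*, *IFI44*, *IFIT1*, *IFIT3* and *OAS3* were called higher, *IFITM3* was called lower and *IFI6* missed the threshold.
ISG15 chr1:1013327-1013496 plus strand: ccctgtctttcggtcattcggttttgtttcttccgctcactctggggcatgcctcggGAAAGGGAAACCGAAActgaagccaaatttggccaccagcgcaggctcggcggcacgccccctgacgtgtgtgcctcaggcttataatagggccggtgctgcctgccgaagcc
IFI44 chr1:78649619-78649788 plus strand: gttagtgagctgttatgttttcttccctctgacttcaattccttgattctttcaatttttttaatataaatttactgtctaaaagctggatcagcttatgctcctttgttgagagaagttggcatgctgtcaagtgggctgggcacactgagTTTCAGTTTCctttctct
IFIT1 chr10:89392453-89392622 plus strand: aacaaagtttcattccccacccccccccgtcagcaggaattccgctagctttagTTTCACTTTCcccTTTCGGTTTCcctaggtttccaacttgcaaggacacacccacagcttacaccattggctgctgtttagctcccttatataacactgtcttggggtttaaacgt
IFIT3 chr10:89327827-89327996 plus strand: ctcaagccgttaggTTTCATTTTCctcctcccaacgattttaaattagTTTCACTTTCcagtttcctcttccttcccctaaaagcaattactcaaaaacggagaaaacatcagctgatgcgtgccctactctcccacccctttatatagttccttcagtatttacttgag
OAS3 chr12:112938304-112938473 plus strand: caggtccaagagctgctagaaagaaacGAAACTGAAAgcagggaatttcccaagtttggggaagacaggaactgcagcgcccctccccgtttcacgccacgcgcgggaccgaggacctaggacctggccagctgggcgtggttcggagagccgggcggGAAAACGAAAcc
IFITM3 chr11:320861-321030 minus strand: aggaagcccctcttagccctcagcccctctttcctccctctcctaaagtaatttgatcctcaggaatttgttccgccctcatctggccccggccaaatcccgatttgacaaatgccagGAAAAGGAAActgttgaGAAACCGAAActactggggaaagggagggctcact
IFI6 chr1:27672193-27672362 minus strand: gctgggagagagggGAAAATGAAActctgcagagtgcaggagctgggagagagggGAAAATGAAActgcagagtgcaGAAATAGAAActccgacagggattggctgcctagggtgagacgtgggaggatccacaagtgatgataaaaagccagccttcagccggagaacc

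The stretch of *ISG15* holds 2 overlapping cores that read as a single run of capitals. The single core of *IFI44* lies next to the start site, *IFIT1*, *IFIT3*, *OAS3* and *IFITM3* hold 2 each, and *IFI6* holds 3. RefSeq promoter windows of 300 bases (250 before the start and 50 after it) matched 38 of the 49 members, and 24 of these (63.2%) held an ISRE core, against 3.57% of all 35116 windows. The GAS core, TTCNNNGAA, which reads the same on both strands, was in 11 of the 38 (28.9%), against 7.66% of all windows. The members were chosen as interferon-stimulated genes, so their excess of these cores over all windows follows from that choice and is not a result of these data. The members' shares also count a single window per gene, whereas the shares of all windows count every window of a gene. Of the members that rose, 10 of 13 matched windows held an ISRE core and 1 of 13 a GAS core. Of the members that fell, 4 of 8 held an ISRE core and 4 of 8 a GAS core, and of those that missed the threshold 5 of 9 held an ISRE core and 3 of 9 a GAS core. These groups are small, and differences between them were not tested. A core is a match of letters and does not show that a factor was bound. The RefSeq starts of *ISG15* and *IFITM3* lie inside the longer spans that the deposited table gives for these genes. The windows of *DHX58*, *OAS2*, *OASL*, *IRF7*, *IFIT2*, *IFITM2*, *GBP2*, *MX2*, *TRIM22*, *LY6E* and *USP18* were not analysed here.

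**Figure D1:**
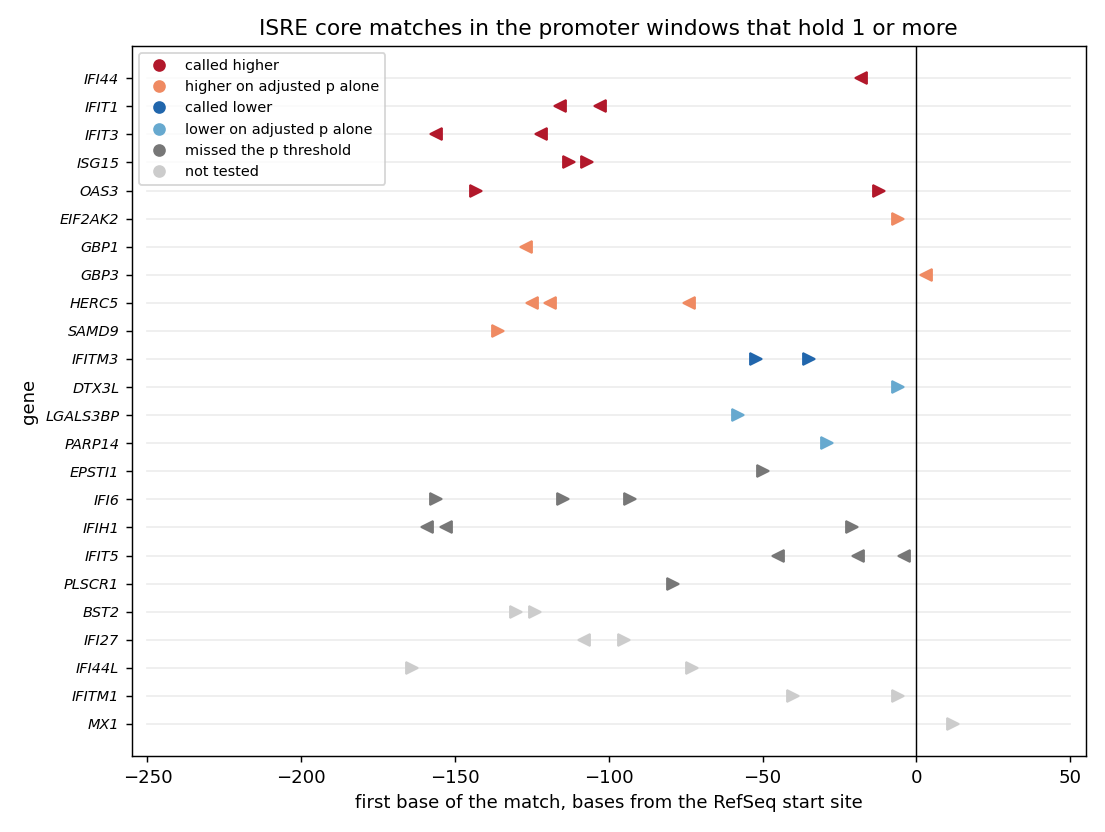
Positions of ISRE core matches in the 24 member windows that hold 1 or more, from 250 bases before to 50 bases after the RefSeq start site (x axis, bases from the start; 1 row per gene, arrowheads give the strand of the match and colors the direction of the member). The 5 members called higher and *IFITM3*, called lower, carry their matches within the 170 bases upstream of the start.

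Over the 39 tested members the log2 fold changes ran from -1.50 to 2.19, with a median of 0.15 against 0.01 over all tested genes. On the adjusted p alone 17 members rose (43.6%, against 34.9% of all tested genes) and 12 fell (30.8%, against 32.7%), and 10 missed the threshold. In 20 members all 3 *RRM2*-OE-TPC-1 values lay above all 3 TPC-1 values (51.3%, against 37.3% of all tested genes), and in 12 they lay below (30.8%, against 35.0%). *TRIM22* is among the 17 and the 20, *OAS1* is among the 20, and *GBP2* is in both counts of 12. Each reached the FPKM minimum only in the group where it was high, so the filter fixed its direction. The share of members that fell was close to that of all genes, and so carries no result about the members.

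**Figure D2:**
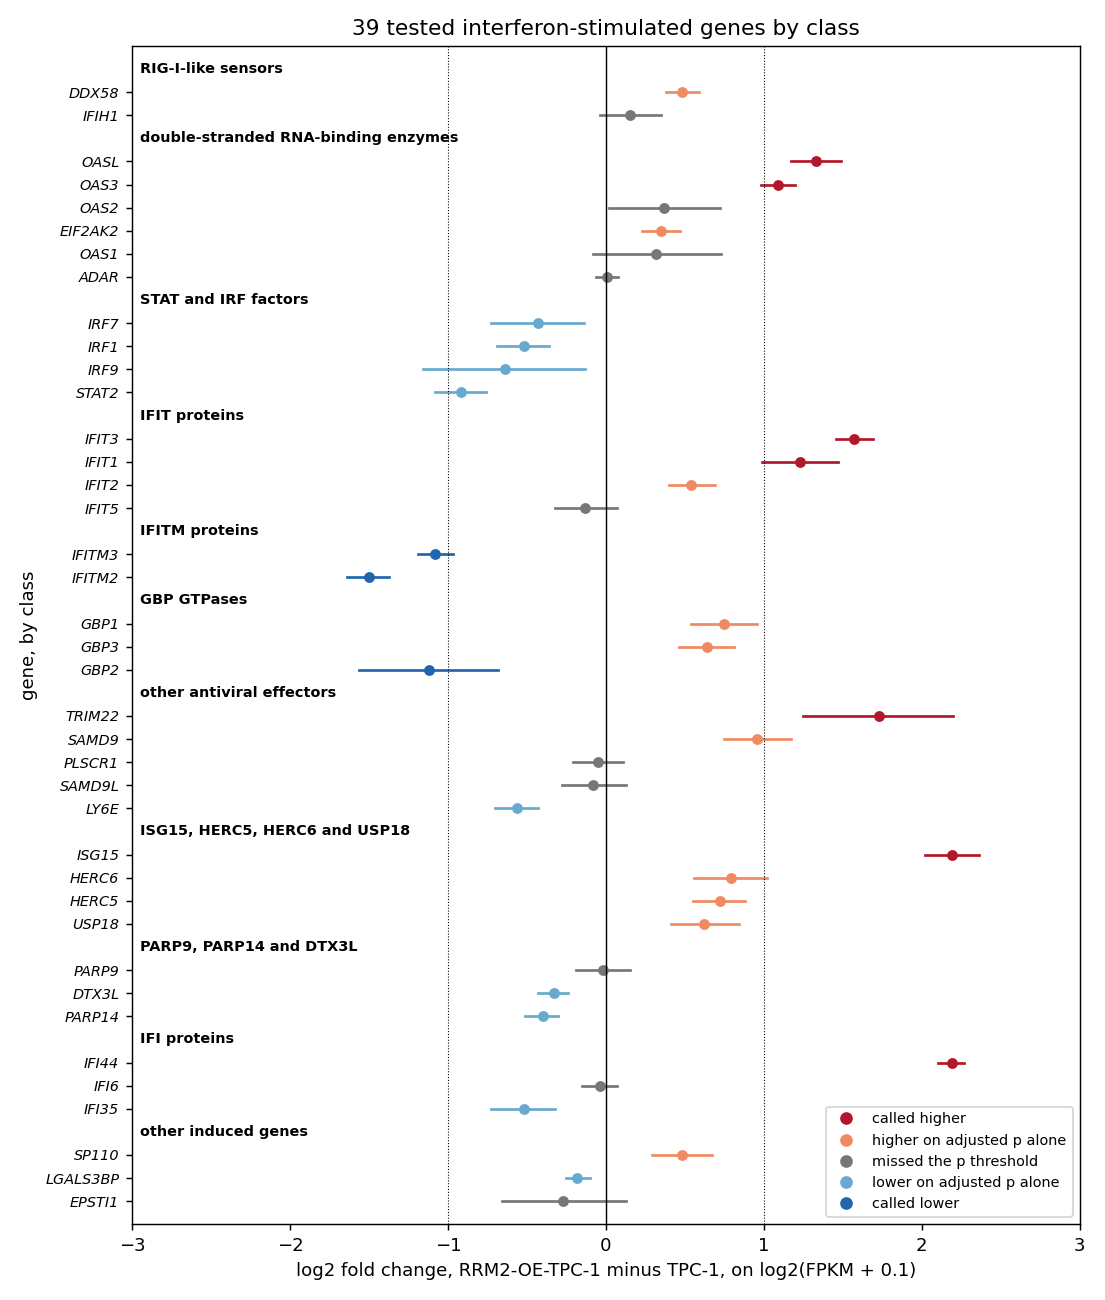
Log2 fold change of the 39 tested members (x axis, *RRM2*-OE-TPC-1 minus TPC-1 on the log2(FPKM + 0.1) scale) by class (y axis), with points for the limma estimate, bars for its 95% interval and dotted lines at the threshold of 1 in each direction. The STAT and IRF factors and the IFITM proteins lie to the left of 0, whereas *ISG15*, *HERC5*, *HERC6* and *USP18* lie to the right.

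Among the RIG-I-like sensors, which bind viral RNA in the cytoplasm and signal toward interferon production, 1 of 2 tested members rose and none fell. *DDX58*, which encodes RIG-I, was at 8.67, 8.37 and 8.10 FPKM in TPC-1 and at 11.5, 11.8 and 12.1 FPKM in *RRM2*-OE-TPC-1. The groups did not overlap, and the log2 fold change was 0.48 (SE 0.0456, adjusted p = 3.35e-05). *IFIH1*, which encodes MDA5, was at 2.12 ± 0.113 FPKM in TPC-1 and 2.37 ± 0.0956 FPKM in *RRM2*-OE-TPC-1 (SD, n = 3), and missed the threshold at an adjusted p of 0.139. *DHX58*, which encodes the regulatory member LGP2, was too low to be tested, with 0, 3 and 0 reads in TPC-1 and 8, 6 and 7 reads in *RRM2*-OE-TPC-1.

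The enzymes that bind double-stranded RNA comprised the oligoadenylate synthetases, whose product activates the ribonuclease RNase L, the related *OASL*, the kinase *EIF2AK2* (PKR), which halts translation, and the editing enzyme *ADAR*. Of these 6, all tested, 3 rose and none fell, with a median log2 fold change of 0.36. *OASL*, at chr12:121019111-121039242, was at 2.96, 3.11 and 2.96 FPKM in TPC-1 and at 7.14, 8.23 and 7.85 FPKM in *RRM2*-OE-TPC-1. *OAS3*, at chr12:112938352-112973249, was at 4.48, 4.65 and 4.45 FPKM in TPC-1 and at 9.63, 9.73 and 9.86 FPKM in *RRM2*-OE-TPC-1. In both genes every *RRM2*-OE-TPC-1 library lay above every TPC-1 library. The log2 fold change of *OASL* was 1.33 (SE 0.0686, adjusted p = 1.35e-06). That of *OAS3* was 1.09 (SE 0.0472, adjusted p = 5.9e-07), just past the threshold of 1.

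The other synthetases were low. *OAS1* was at 0.460, 0.421 and 0.381 FPKM in TPC-1 and at 0.517, 0.507 and 0.634 FPKM in *RRM2*-OE-TPC-1, and *OAS2* was at 0.545, 0.674 and 0.721 FPKM against 0.839, 0.913 and 0.832 FPKM. Neither passed the threshold (adjusted p = 0.133 and 0.0576), although the values did not overlap between groups in either gene. *OAS1* reached the FPKM minimum in the *RRM2*-OE-TPC-1 libraries alone. *OAS2* passed the threshold on recovered reads with voom, at a log2 fold change of 0.43. *EIF2AK2* rose from 8.58 ± 0.396 to 11.0 ± 0.458 FPKM (log2 fold change 0.35, adjusted p = 0.000506). *ADAR*, the most highly expressed of the class, was at 52.5 ± 0.428 and 52.9 ± 0.911 FPKM (log2 fold change 0.01, 95% interval -0.06 to 0.08). Summed over the 4 genes of the OAS family, FPKM was 8.45 to 8.85 in TPC-1 and 18.1 to 19.4 in *RRM2*-OE-TPC-1.

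All 4 STAT and IRF factors of the list fell, with a median log2 fold change of -0.58, and in each the groups did not overlap. *STAT2*, a subunit of ISGF3, was at 9.91, 11.4 and 10.1 FPKM in TPC-1 and at 5.71, 5.57 and 5.13 FPKM in *RRM2*-OE-TPC-1. Its log2 fold change of -0.92 (SE 0.0688, adjusted p = 9.14e-06) was just short of the threshold of 1. *IRF1*, a transcription factor induced through GAS elements, was at 3.46, 3.58 and 3.31 FPKM against 2.38, 2.33 and 2.41 FPKM. Its log2 fold change was -0.52 (SE 0.0705, adjusted p = 0.000267). *IRF7*, the factor that amplifies production of interferon alpha, was at 3.31, 4.43 and 4.06 FPKM against 3.24, 2.84 and 2.56 FPKM. The lowest TPC-1 value and the highest *RRM2*-OE-TPC-1 value of *IRF7* lay close together, and the log2 fold change was -0.43 (SE 0.126, adjusted p = 0.0155). *IRF9*, the DNA-binding subunit of ISGF3, was at 0.600, 0.721 and 0.662 FPKM against 0.292, 0.554 and 0.347 FPKM, or 16 to 46 reads per library. Its log2 fold change was -0.64 (SE 0.225, adjusted p = 0.0329), and its exons share 1838 bases with *AL136295.5* on the same strand. *IRF9* missed the threshold when any library other than *RRM2*-OE-TPC-1 replicate 2 was left out, at an adjusted p of up to 0.0937, and *IRF7* missed it without TPC-1 replicate 2, at an adjusted p of 0.0518. *IRF1* shares 1716 exonic bases with *C5orf56* on the opposite strand.

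The IFIT proteins bind foreign RNA and hinder its translation, and their genes lie side by side on chromosome 10. Of the 4, 3 rose and none fell, with a median log2 fold change of 0.89. *IFIT3*, at chr10:89327894-89340971, was at 6.42, 6.01 and 6.37 FPKM in TPC-1 and at 19.8, 18.3 and 18.4 FPKM in *RRM2*-OE-TPC-1, and its log2 fold change was 1.57 (SE 0.0498, adjusted p = 1.4e-07). *IFIT1*, at chr10:89392546-89406486, was at 2.23, 2.90 and 2.68 FPKM against 6.78, 6.04 and 5.89 FPKM, and its log2 fold change was 1.23 (SE 0.104, adjusted p = 1.81e-05). The ratio of the means was 3.01 for *IFIT3* and 2.39 for *IFIT1*, and in neither gene did the groups overlap. *IFIT2* was at 6.44, 5.57 and 5.80 FPKM against 8.97, 8.68 and 8.42 FPKM, a smaller log2 fold change of 0.54 (SE 0.0644, adjusted p = 0.000125). *IFIT5* was at 4.57, 5.01 and 4.74 FPKM against 4.81, 4.38 and 3.94 FPKM, and these values overlapped (adjusted p = 0.21). Its 95% interval ran from -0.32 to 0.07, and its difference from the other genes was not tested. Summed over the 4 genes FPKM was 19.5 to 19.7 in TPC-1 and 36.6 to 40.4 in *RRM2*-OE-TPC-1. *IFIT2* shares 356 exonic bases with *AL353751.1* on the same strand and 65 with *LIPA* on the opposite strand.

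The IFITM proteins sit in cell membranes and hinder the entry of enveloped viruses, and this class had the lowest median log2 fold change of the 11 classes, -1.29 over its 2 tested members. *IFITM3*, at chr11:319669-327537, was at 232, 220 and 210 FPKM in TPC-1 and at 99.7, 104 and 108 FPKM in *RRM2*-OE-TPC-1. *IFITM2*, at chr11:307631-315272, was at 82.4, 83.3 and 73.6 FPKM against 26.3, 28.6 and 29.2 FPKM. No library of one group reached the range of the other in either gene. The log2 fold change was -1.50 for *IFITM2* (SE 0.059, adjusted p = 3.52e-07) and -1.08 for *IFITM3* (SE 0.0483, adjusted p = 6.88e-07). *IFITM1* was too low to be tested, with 7, 2 and 5 reads in TPC-1 and 0 reads in each *RRM2*-OE-TPC-1 library. Against a floor of 3 reads over the group it was at least 4.48-fold lower, and without the filter its adjusted p was 0.011. *IFITM1* and *IFITM2* share 351 exonic bases on the same strand, and reads of related genes could be split among all 3, which was not tested. Their summed FPKM was 284 to 315 in TPC-1 and 126 to 138 in *RRM2*-OE-TPC-1, and these ranges did not overlap.

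**Figure D3:**
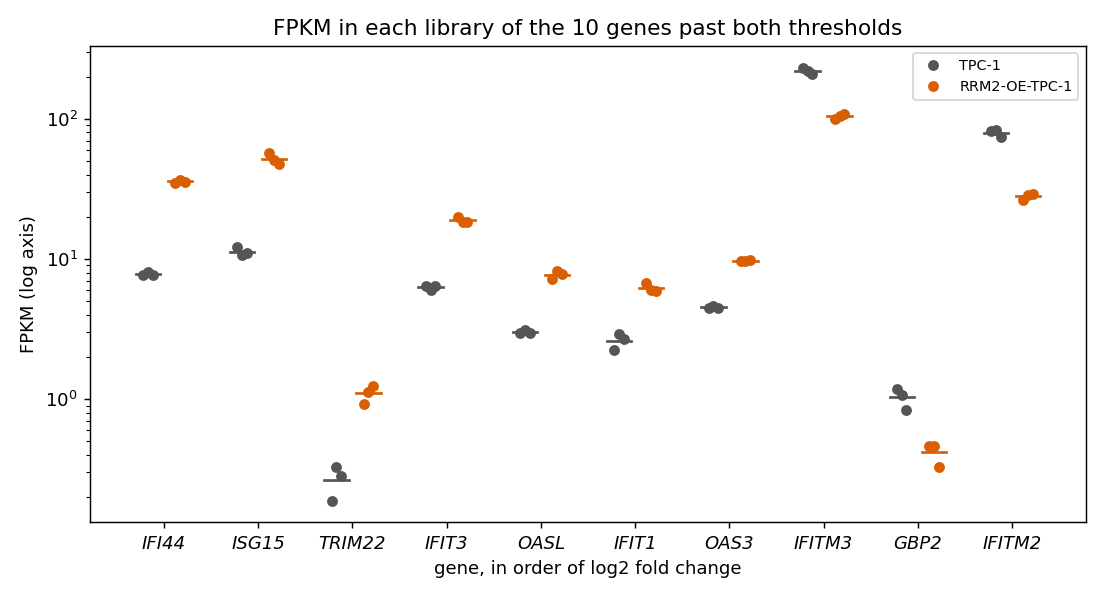
FPKM in each of the 3 TPC-1 and 3 *RRM2*-OE-TPC-1 libraries (y axis, log scale) for the 10 members past both thresholds (x axis, in order of log2 fold change), with points for libraries and short lines for group means. The groups are apart in all 10, and *IFITM3* falls from the highest level of the 10 while *TRIM22* and *GBP2* lie near 1 FPKM.

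The GBP proteins are GTPases that attack the membranes of vacuoles holding pathogens, and the 3 neighboring genes on chromosome 1 went in different directions. *GBP1* was at 2.29, 2.82 and 2.46 FPKM in TPC-1 and at 4.17, 4.54 and 4.19 FPKM in *RRM2*-OE-TPC-1 (log2 fold change 0.75, SE 0.0906, adjusted p = 0.000143). *GBP3* was at 5.29, 5.26 and 4.54 FPKM against 7.54, 7.69 and 8.38 FPKM (log2 fold change 0.64, SE 0.0755, adjusted p = 0.000125). *GBP2*, at chr1:89106132-89150456, was instead at 1.18, 1.07 and 0.840 FPKM against 0.463, 0.465 and 0.330 FPKM. The fall of *GBP2* had a log2 fold change of -1.12 (SE 0.19, adjusted p = 0.000968) and rested on 33 to 124 reads per library. Its values did not overlap between the groups. *GBP2* was at the FPKM minimum in the 3 TPC-1 libraries alone, so it had to be higher there to be tested, could not be tested without any of them, and fell short of the threshold, at -0.99, without *RRM2*-OE-TPC-1 replicate 3. *GBP2* shares 621 exonic bases with *GBP7* on the same strand, and *GBP7* was listed at 0.

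The other antiviral effectors were a mixed class of 10 genes, of which 5 were tested, 2 rose and 1 fell. *TRIM22*, a ubiquitin ligase that restricts several viruses, lies at chr11:5689689-5737089. It was at 0.189, 0.326 and 0.281 FPKM in TPC-1 and at 0.919, 1.13 and 1.25 FPKM in *RRM2*-OE-TPC-1, or 19, 33 and 27 reads against 80, 117 and 120. Its log2 fold change was 1.73 (SE 0.207, adjusted p = 0.000135), the highest of the tested members after *ISG15* and *IFI44*. *TRIM22* was at the FPKM minimum in the 3 *RRM2*-OE-TPC-1 libraries alone, so it had to be higher there to be tested, and it could not be tested once any of these was left out. *SAMD9*, a restriction factor of poxviruses, was at 2.80, 2.52 and 2.65 FPKM against 4.64, 5.65 and 5.54 FPKM. Its log2 fold change of 0.96 (SE 0.0905, adjusted p = 3.38e-05) was just short of the threshold and passed it without *RRM2*-OE-TPC-1 replicate 1. *SAMD9L*, the gene next to it, was at 2.60 ± 0.199 and 2.46 ± 0.150 FPKM (log2 fold change -0.08, adjusted p = 0.475).

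*LY6E*, a membrane-anchored protein that inhibits coronavirus entry, was at 116, 105 and 118 FPKM in TPC-1 and at 81.6, 72.3 and 75.8 FPKM in *RRM2*-OE-TPC-1. The groups did not overlap, and the log2 fold change was -0.56 (SE 0.0582, adjusted p = 5.77e-05). *PLSCR1*, a phospholipid scramblase, was at 9.45 ± 0.631 and 9.13 ± 0.608 FPKM and missed the threshold (adjusted p = 0.553). The remaining 5 were under the minimum for testing, and their levels are given as reads. *RSAD2*, which encodes viperin, had 12, 14 and 8 reads in TPC-1 and 37, 35 and 44 in *RRM2*-OE-TPC-1. Its neighbor *CMPK2*, a mitochondrial nucleotide kinase, had 3, 2 and 4 reads against 18, 16 and 17. Both pairs of groups were apart, and without the filter the log2 fold changes were 1.33 (adjusted p = 0.0128) and 1.30 (adjusted p = 0.01). The 2 genes share 14 exonic bases on opposite strands. *MX1*, a GTPase that blocks influenza virus and is often taken as a marker of interferon response, had 42, 34 and 24 reads against 25, 25 and 21, and these overlapped. *MX2* had 1 read, in *RRM2*-OE-TPC-1 replicate 1, and none in the other libraries. *BST2*, which encodes tetherin, had 9, 5 and 9 reads against 6, 2 and 1.

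*ISG15* encodes a ubiquitin-like protein that is attached to other proteins, *HERC5* and *HERC6* encode ligases of the family that attaches it, and *USP18* encodes the protease that removes it and also restrains the interferon receptor. All 4 rose, with a median log2 fold change of 0.75. *ISG15*, at chr1:1001138-1014540, was at 12.1, 10.6 and 11.1 FPKM in TPC-1 and at 57.0, 50.7 and 47.6 FPKM in *RRM2*-OE-TPC-1. Every *RRM2*-OE-TPC-1 library was far above every TPC-1 library. The log2 fold change was 2.19 (SE 0.0738, adjusted p = 1.85e-07), and *ISG15* ranked 65 among the 13621 tested genes by rise. The other 3 genes of the group had smaller log2 fold changes. *HERC6* was at 1.56, 1.82 and 1.92 FPKM against 3.09, 3.31 and 2.95 FPKM (log2 fold change 0.79, adjusted p = 0.000186). *HERC5* was at 4.36, 4.49 and 4.95 FPKM against 8.16, 7.53 and 7.20 FPKM (log2 fold change 0.72, adjusted p = 4.41e-05). *USP18* was at 1.72, 1.56 and 1.80 FPKM against 2.83, 2.52 and 2.62 FPKM (log2 fold change 0.62, adjusted p = 0.000468). None of the 3 overlapped between groups. The activating and conjugating enzymes of ISG15 were not among the 49, were named after their values had been seen, and went the other way. *UBE2L6*, the conjugating enzyme, was at 16.8, 16.6 and 17.7 FPKM against 11.0, 10.7 and 10.4 FPKM (log2 fold change -0.67, adjusted p = 3.89e-06). *UBA7*, the activating enzyme, was at 1.40, 0.955 and 1.04 FPKM against 0.822, 0.886 and 0.635 FPKM (log2 fold change -0.47, adjusted p = 0.0481), and its adjusted p rose to as much as 0.159 with 1 library left out. In neither gene did the groups overlap.

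*PARP9* and *DTX3L* encode partners that act together in ubiquitination and ADP-ribosylation, and *PARP14* encodes a further ADP-ribosyltransferase. *PARP14* was at 12.1, 12.5 and 11.6 FPKM in TPC-1 and at 9.18, 8.87 and 9.28 FPKM in *RRM2*-OE-TPC-1 (log2 fold change -0.40, adjusted p = 8.64e-05). *DTX3L* was at 14.1, 14.8 and 14.6 FPKM against 11.2, 11.5 and 11.7 FPKM (log2 fold change -0.33, adjusted p = 0.000139). Both fell with no overlap between groups. *PARP9*, which shares a promoter region with *DTX3L* and 217 exonic bases on the opposite strand, was at 2.97 ± 0.170 and 2.92 ± 0.0654 FPKM. Its log2 fold change was -0.02, with a 95% interval of -0.19 to 0.15.

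The IFI proteins share a name rather than a function. *IFI44*, an interferon-induced cytoplasmic protein, lies at chr1:78649796-78664078. It was at 7.67, 8.02 and 7.70 FPKM in TPC-1 and at 35.1, 36.8 and 35.6 FPKM in *RRM2*-OE-TPC-1. The spread within each group was small beside the difference, and the log2 fold change of 2.19 (SE 0.0384, adjusted p = 1.11e-08) ranked 67 among the tested genes by rise. *IFI44L*, its neighbor and paralog, had 3, 6 and 6 reads in TPC-1 and 2, 4 and 5 in *RRM2*-OE-TPC-1 and was not tested. *IFI35*, a cytoplasmic partner of NMI, was at 13.3, 12.4 and 12.9 FPKM against 7.71, 9.20 and 10 FPKM. It fell without overlap between the groups, with a log2 fold change of -0.52 (SE 0.0891, adjusted p = 0.000995). *IFI6*, a mitochondrial and endoplasmic reticulum protein, was at 13.7, 12.6 and 12.5 FPKM against 12.6, 12.8 and 12.3 FPKM. These overlapped, and the log2 fold change was -0.04 (95% interval -0.15 to 0.07). Its promoter stretch is the one with 3 ISRE cores. *IFI27* had 14, 22 and 13 reads against 5, 15 and 6, with overlap, and was not tested.

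Of the remaining 4 genes, *SP110*, a nuclear body protein, was at 2.12, 2.15 and 2.38 FPKM in TPC-1 and at 3.04, 3.06 and 3.27 FPKM in *RRM2*-OE-TPC-1 (log2 fold change 0.48, adjusted p = 0.000959). It shares 170 exonic bases with *SP140* on the opposite strand. *LGALS3BP*, a secreted glycoprotein, was at 153, 151 and 153 FPKM against 138, 133 and 132 FPKM. This was a small fall without overlap between the groups (log2 fold change -0.18, adjusted p = 0.00136). *EPSTI1* was at 0.788 ± 0.0602 and 0.644 ± 0.126 FPKM and missed the threshold (adjusted p = 0.196). *XAF1*, a pro-apoptotic gene, was listed at 0 in all 6 libraries.

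The members were also split by level, in 3 ranges chosen after the values had been seen. Of the 5 members with a mean of at least 50 FPKM over the 6 libraries (*IFITM3*, *LGALS3BP*, *LY6E*, *IFITM2* and *ADAR*), 4 fell and none rose, with a median log2 fold change of -0.56. Of all 699 tested genes at that level 24.2% fell and 53.1% rose, with a median of 0.17. Between 5 and 50 FPKM 10 of 16 members rose (62.5%) and 4 fell, against 45.5% and 31.2% of 6482 genes, and the members' median log2 fold change was 0.51. Under 5 FPKM 7 of 18 rose (38.9%) and 4 fell, against 22.3% and 35.0% of 6440 genes, and the members' median was 0.24. *TRIM22* is among the 7 and *GBP2* among the 4, and the filter fixed the direction of both. There was thus no trend over the 3 ranges, and the range above 50 FPKM, which stood apart, held 5 members, of which *IFITM2* and *IFITM3* belong to the same family. None of this was tested.

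**Figure D4:**
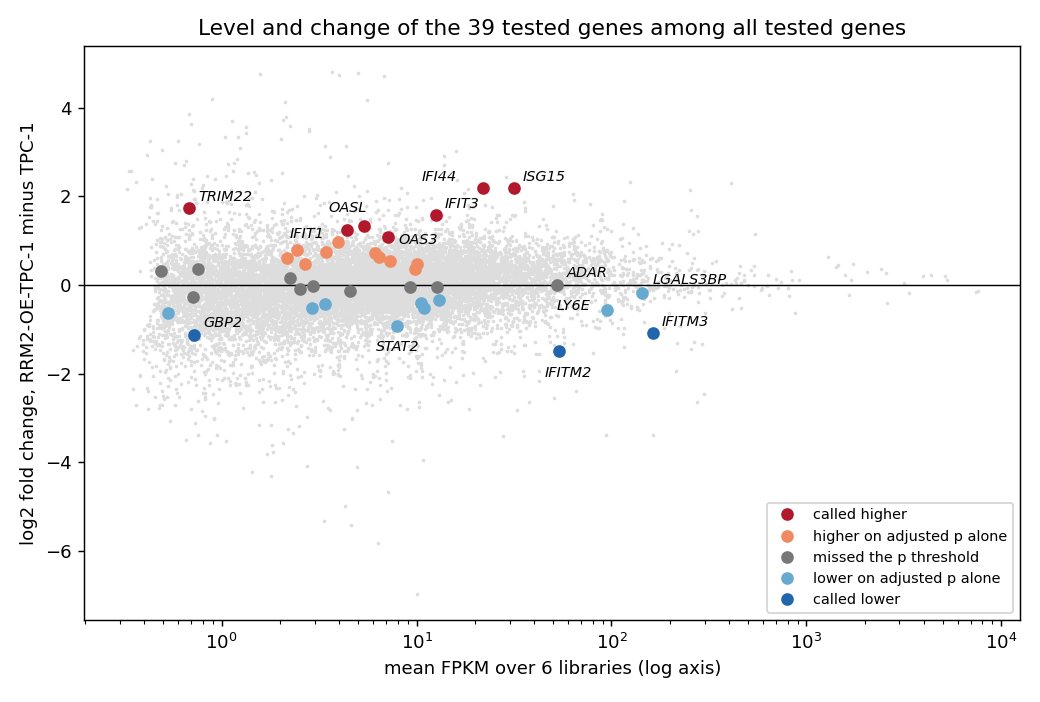
Log2 fold change (y axis) against mean FPKM over the 6 libraries (x axis, log scale) for the 39 tested members (colored points) and all 13621 tested genes (grey points). The members above 50 FPKM lie below 0 except *ADAR* (0.01), and *ISG15* and *IFI44* lie highest among the members.

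The other genes of the pathway were given by lists of 99 genes, of which 61 were tested. On the adjusted p 20 of the 61 rose (32.8%, against 34.9% of all tested genes) and 27 fell (44.3%, against 32.7%), with a median log2 fold change of -0.14, and 1 was called higher and 3 lower. Among 21 interferon genes 1 was tested, *IFNE*, an epithelial type I interferon, and 15 were listed at 0 in all 6 libraries. *IFNE* was at 1.26, 1.65 and 1.32 FPKM in TPC-1 and at 0.516, 0.435 and 0.383 FPKM in *RRM2*-OE-TPC-1, or 31 to 41 reads against 9 to 11. It was called lower (log2 fold change -1.47, SE 0.164, adjusted p = 9.02e-05). *IFNB1*, *IFNG*, *IFNL1*, *IFNL2* and *IFNL3* were among the genes at 0 and were named after their values had been seen.

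Of the 6 receptor genes 4 were tested, 2 fell and none rose. *IFNAR1*, a chain of the type I receptor, was at 9.29, 9.17 and 9.22 FPKM in TPC-1 and at 9.53, 9.96 and 9.57 FPKM in *RRM2*-OE-TPC-1 (log2 fold change 0.07, adjusted p = 0.173). *IFNAR2*, the other chain, was at 0.469 ± 0.0327 and 0.445 ± 0.0535 FPKM and was not tested. The genes that fell were *IFNGR1* (log2 fold change -0.43) and *IFNGR2* (log2 fold change -0.53), the chains of the receptor of interferon gamma, which were named after their values had been seen. Of 9 kinase and transcription factor genes 8 were tested, 4 rose and 3 fell. *JAK1* was at 23.4, 24.3 and 23.1 FPKM against 37.2, 36.3 and 36.4 FPKM, with no overlap and a log2 fold change of 0.63 (SE 0.0341, adjusted p = 1.71e-06). *TYK2* was at 11.9, 11.9 and 11.4 FPKM against 13.2, 13.4 and 12.9 FPKM, a smaller rise (log2 fold change 0.17, adjusted p = 0.006).

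Of 13 sensing adaptors and kinases 11 were tested, 3 rose and 6 fell, with a median log2 fold change of -0.30. The lowest of them, named after its values had been seen, was *TMEM173*, which encodes the adaptor STING, at 15.0 ± 0.812 and 7.66 ± 0.514 FPKM (log2 fold change -0.96). *MAVS*, the adaptor of the RIG-I-like sensors, was at 18.7 ± 0.603 and 13.6 ± 0.193 FPKM (log2 fold change -0.46) and was chosen in the same way. Of 6 inhibitors of signaling 5 were tested, 1 fell (*SOCS3*, log2 fold change -0.65, named after its values had been seen) and none rose. Of 44 further interferon-induced genes 32 were tested, 13 rose and 14 fell, with a median log2 fold change of -0.06. *CCL5*, a chemokine of T cells, was at 1.19, 0.747 and 1.29 FPKM in TPC-1 and at 2.56, 2.93 and 3.82 FPKM in *RRM2*-OE-TPC-1 and was called higher (log2 fold change 1.46, adjusted p = 0.000414). *WARS*, which encodes tryptophanyl-tRNA synthetase, was at 46.9, 45.4 and 45.3 FPKM against 16.7, 18.4 and 17.8 FPKM and was called lower (log2 fold change -1.38, adjusted p = 1.28e-07). *SLFN5*, a Schlafen protein, was at 7.53, 8.02 and 7.63 FPKM against 3.76, 3.48 and 3.65 FPKM and was called lower (log2 fold change -1.07, adjusted p = 1.65e-06). In these 3 genes the groups did not overlap. The 13 and 14 genes are 40.6% and 43.8% of the 32, against 34.9% and 32.7% of all tested genes, and the difference was not tested.

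**Figure D5:**
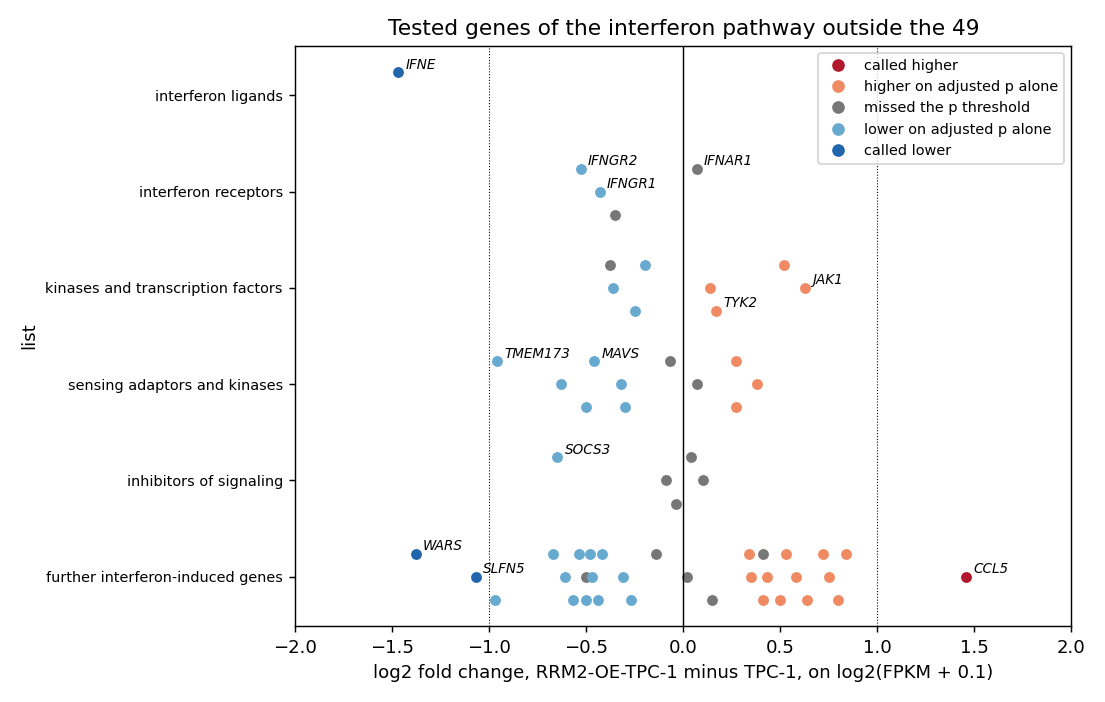
Log2 fold change (x axis, *RRM2*-OE-TPC-1 minus TPC-1) of the 61 tested genes of 6 lists of the interferon pathway outside the 49 members (y axis), 1 point per gene, with dotted lines at the threshold of 1 in each direction. *JAK1* and *TYK2* lie to the right of 0, *IFNE*, *WARS* and *SLFN5* lie beyond the threshold on the left and *CCL5* on the right.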

How the data were processed

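mRNA of 3 wild strain TPC-1 and 3 *RRM2*-OE-TPC-1 libraries was measured by paired-end RNA sequencing. Library preparation is given as poly(A) selection in the methods and as depletion of ribosomal RNA followed by RNase R in the labels, and these would count different RNAs. The authors aligned reads with HISAT2 2.0.5, counted them per gene with featureCounts 1.5.0, divided by gene length and depth, and deposited FPKM values. The submitters' processing notes name GRCh38.p14 and DESeq2 1.20.0. Whether strand was used in counting is not given in the sources used here, so overlapping genes on opposite strands are named. All 58735 identifiers were in GENCODE 29, and 58724 had the same start and end there.

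Times gene length, 100.0% of the FPKM values were whole numbers of reads within 0.1, so reads were recovered. Replicates differed by more than counting noise, with a chi-square per degree of freedom of 1.818 to 5.996. Genes with at least 0.5 FPKM and 10 reads in at least 3 libraries (13621) were tested with limma 3.58.1 (lmFit, eBayes with trend) in R 4.3.3 on log2(FPKM + 0.1), with Benjamini-Hochberg adjustment over all of them. Tables and figures used Python 3.11.15, numpy 2.4.6, pandas 2.3.3 and matplotlib 3.10.9, and the procedure was tested on simulated data. Errors are SD over 3 libraries unless SE is written. Promoter windows came from RefSeq, and where a gene had several the one nearest its 5′ end in the deposited table was taken. The members, their classes, the lists, the tests and the alternatives were chosen with earlier results of these data known, and no p was adjusted over a list alone. Members past both thresholds, members under the test minimum and the STAT and IRF factors are given by library. Of the other pathway genes, those called on both thresholds and *JAK1*, *TYK2*, *IFNAR1* and *IFNAR2* are named by rule, and any other is said to be chosen after its values were seen. Some genes of the marker and pathway lists are not reported here by name.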

Additional observations from a re-analysis of the deposited data

How the results depend on the processing

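Of the 7 members called higher, a test for a change above 1 (limma treat) left 4, without *IFIT1*, *OAS3* and *TRIM22*, and the adjusted p alone gave 17. Of the 3 called lower, treat left 1 (*IFITM2*) and the adjusted p alone gave 12. With no filter on low values 9 were called higher, with *CMPK2* and *RSAD2* added, and 4 lower, with *IFITM1* added. A pseudocount of 1 left 5 and 2, without *OAS3*, *TRIM22* and *GBP2*, all of which are near the threshold or low. A pseudocount of 0.01, the FPKM minimum alone, library totals, median-of-ratios factors and voom on recovered reads gave the same 7 and 3 genes. Leaving out 1 library in turn gave 6 to 7 called higher and 2 to 3 called lower, and the genes lost were *TRIM22* and *GBP2*, which then mostly failed the filter of 3 libraries, while *SAMD9* was gained without *RRM2*-OE-TPC-1 replicate 1.

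Direction turned in members that had missed the threshold. The log2 fold change of *ADAR* was -0.05 with library totals and -0.0 without *RRM2*-OE-TPC-1 replicate 1, that of *PLSCR1* ran from -0.1 to 0.01 and that of *PARP9* from -0.06 to 0.02 with 1 library left out, positive only without *RRM2*-OE-TPC-1 replicate 3 and without TPC-1 replicate 2. *IRF9* also missed the threshold with no filter and with the FPKM minimum alone, and *IRF7* with no filter. Deviations of libraries that share a replicate number correlated at -0.01053, -0.006025 and -0.05503 across genes, so the numbers do not pair the libraries, and a fit with the replicate number as a block called 7 higher and 3 lower. The lowest tested members rested on few reads, 16 to 46 per library for *IRF9* and 30 to 50 for *OAS1*.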
